A study of Homo sapiens with 9 samples.

Results

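DROSHA, DGCR8, DDX5, DDX17, XPO5, DICER1, TARBP2 and PRKRA encode the proteins that cut a microRNA out of its primary transcript, carry it out of the nucleus and trim it to its mature length. They were taken by symbol, as the core enzymes and partners of these steps, and all 8 were found among the 19706 usable gene symbols of the table. Polyadenylated RNA was sequenced from 3 human neuroblastoma cell lines, with 3 libraries per line and no treatment: Kelly and BE(2)C, both labelled MYCN amplified, and SH-SY5Y, labelled non-amplified. MYCN is a transcription factor gene whose amplification marks a high-risk form of this tumour of the developing sympathetic nervous system. All lines were grown in the same mixed medium and harvested at 70% confluence. Each MYCN state is represented by established lines, and the non-amplified state by 1 line, so MYCN status and line identity cannot be told apart. Whether the libraries of a line are separate cultures is not stated in the labels, so every p-value below captures library-to-library spread alone, and that spread may be technical.

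In the nucleus, DROSHA, an RNase III enzyme, and DGCR8, the RNA-binding protein that anchors it to the hairpin, form the microprocessor, and the RNA helicases DDX5 and DDX17 help it with a subset of primary transcripts. XPO5 (exportin-5), loaded with the GTPase RAN, carries the cut hairpin to the cytoplasm. There DICER1, a second RNase III enzyme, removes the loop, with TARBP2 or PRKRA as its RNA-binding partner. Several of these genes are tied into feedback: the microprocessor cuts hairpins within the DGCR8 mRNA itself, and let-7 microRNAs bind the DICER1 mRNA. MicroRNAs themselves were not measured in these libraries.

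The sequences behind these feedback loops are shown first, since they link the transcripts below to the pathway's own products. RefSeq (GRCh38.p14) places 3 mature microRNAs in exon 2 of DGCR8, on the plus strand; capitals mark the seed, bases 2 to 8, which differs in each.
hsa-miR-3618 (chr22:20085797-20085818, in the 5′ UTR): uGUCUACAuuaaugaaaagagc
hsa-miR-1306-5p (chr22:20086072-20086093, in the coding region): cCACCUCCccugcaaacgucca
hsa-miR-1306-3p (chr22:20086112-20086129, in the coding region): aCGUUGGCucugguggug
hsa-let-7a-5p (MIRLET7A1, chr9:94175962-94175983, plus strand): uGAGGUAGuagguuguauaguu

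The letters CTACCTC, complementary to the let-7 seed, were searched on the sense strand of each gene's longest coding transcript (GENCODE release 29). They occurred 4 times in the DICER1 coding region, 1 time in that of XPO5 (exon 24) and 1 time in the TARBP2 3′ UTR, and in no other member. Of 19702 genes with a coding transcript, 13.4% held the letters at least 1 time in the coding region and 17 genes, or 0.0863%, at least 4 times. The DICER1 coding region is long, at 5766 nt: among the 778 genes of at least 5000 coding nt, 42% held a match and 12, or 1.54%, held at least 4. The DICER1 windows are given on the minus strand of GRCh38, with the match in capitals and its coordinates.
exon 18 (chr14:95107889-95107895): tcagcatactgtgttCTACCTCttaatgtt
exon 23 (chr14:95103749-95103755): tacccgtgcaaccaaCTACCTCatattcca
exon 23 (chr14:95103641-95103647): gaaatgctaacaaatCTACCTCagatggaa
exon 26 (chr14:95094107-95094113): agatgcgattttggaCTACCTCataaccaa

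Levels are given as scaled TPM, a length-normalised share (TPM) of the gene entries alone after adjustment for composition; the deposited values hold no depth, so no counting error can be attached. Spike-in RNA took 89.0% to 90.7% of the deposited total in Kelly and 84.5% to 86.7% in BE(2)C, against 83.7% to 84.6% in SH-SY5Y. Mitochondrial genes took 16.5% to 19.8% of the gene total in Kelly and 24.5% to 35.3% in BE(2)C, against 17.2% to 18.0% in SH-SY5Y. Both shares thus differ by line along with the levels below, and their part in the results was not tested beyond the alternative scalings given. All 8 fixed neuroblastoma markers averaged at least 1 scaled TPM in each line, with summed levels of 5173 to 6001 in Kelly and 4916 to 5292 in BE(2)C, against 6173 to 6322 in SH-SY5Y. The 15 markers of other cell types summed to 10.9 to 18.0, 20.9 to 37.6 and 12.6 to 15.3 scaled TPM in the same order of lines; 4, 5 and 6 of them were at 0 in all 3 libraries, and their part in the results below was not tested. Differences were called at a Benjamini-Hochberg adjusted p under 0.05 in a limma fit over 13076 genes, 8 of 8 members included. In such bulk RNA, fewer cells that express a gene and less of its RNA per cell cannot be told apart.

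Under the main scaling DROSHA was higher in both MYCN-amplified lines. DROSHA (chr5:31400497-31532196, minus strand) stood at 52.7, 65.1 and 68.5 scaled TPM in Kelly and 66.9, 60.7 and 66.0 in BE(2)C, against 41.5, 39.4 and 44.6 in SH-SY5Y. Every Kelly and BE(2)C library lay above every SH-SY5Y library, while Kelly and BE(2)C overlapped. The log2 fold change was 0.55 ± 0.11 (SE, adjusted p = 0.00188) in Kelly and 0.61 ± 0.11 (adjusted p = 0.000882) in BE(2)C, each against SH-SY5Y, and -0.06 (adjusted p = 0.657) in Kelly against BE(2)C. Against SH-SY5Y the Kelly value turned to -0.13 with values as deposited and to -0.33 with spike-in scaling, neither of them called, and the BE(2)C call was lost with both and with library totals.

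DGCR8 (chr22:20080232-20111877, plus strand) was highest on average in Kelly and lowest in SH-SY5Y. It measured 40.4, 52.5 and 52.2 scaled TPM in Kelly and 22.7, 33.0 and 41.8 in BE(2)C, against 17.5, 24.0 and 21.8 in SH-SY5Y. Kelly lay wholly above SH-SY5Y, and BE(2)C overlapped both other lines. Kelly exceeded SH-SY5Y by 1.16 ± 0.22 on the log2 scale (adjusted p = 0.00154). This call was lost with values as deposited, at 0.39 (adjusted p = 0.094), and with spike-in scaling, at 0.29 (adjusted p = 0.299). The steps of 0.57 in BE(2)C against SH-SY5Y (adjusted p = 0.0470) and 0.59 in Kelly against BE(2)C (adjusted p = 0.0451) lay near the threshold, and were lost when 1 library was left out in 7 and 6 of 9 cases, with adjusted p up to 0.156 and 0.132. With spike-in scaling the BE(2)C value against SH-SY5Y was -0.0098. Of the 31-base stretches of the DGCR8 transcript, 2.52% also occur in other annotated genes, chiefly MIR3618, the hairpin gene inside its exon 2.

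DDX17 showed the largest differences of the 8 genes from SH-SY5Y, and its paralogue DDX5 gave no call under the main scaling. DDX17 (chr22:38483440-38507660, minus strand) stood at 501.8, 574.0 and 559.9 scaled TPM in Kelly and 390.5, 422.3 and 445.9 in BE(2)C, against 150.5, 148.0 and 147.6 in SH-SY5Y. No line overlapped another. The mean was 3.67 times that of SH-SY5Y in Kelly (log2 1.87 ± 0.07, adjusted p = 6.43e-08) and 2.82 times in BE(2)C (log2 1.49, adjusted p = 2.05e-07). Kelly exceeded BE(2)C by a further 0.38 on the log2 scale (adjusted p = 0.00157). This step was not called with values as deposited, at 0.23 (adjusted p = 0.170), or with spike-in scaling, at 0.08 (adjusted p = 0.680). Of all genes tested, 95.4% and 94.0% had a lower log2 fold change than DDX17 in Kelly and BE(2)C, each against SH-SY5Y.

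DDX5 (chr17:64499616-64508199, minus strand) measured 27.3, 16.6 and 31.6 scaled TPM in Kelly and 17.2, 24.0 and 25.7 in BE(2)C, against 26.3, 22.2 and 18.6 in SH-SY5Y. The 3 lines overlapped throughout. Its log2 differences were 0.13, -0.01 and 0.14 (SE 0.25 each) in Kelly against SH-SY5Y, BE(2)C against SH-SY5Y and Kelly against BE(2)C, with adjusted p of 0.686, 0.977 and 0.665; with this error, moderate changes would not have been detectable. DDX5 was called lower than in SH-SY5Y with values as deposited, at -0.43 in Kelly (adjusted p = 0.0479) and -0.44 in BE(2)C (adjusted p = 0.0467), and with spike-in scaling, at -0.73 (adjusted p = 0.0135) and -0.59 (adjusted p = 0.0429). GENCODE annotates 35 transcripts of DDX5 and 12 of DDX17, and the sources used here do not say how transcript values became gene values. Whether the DDX5 level covers all its transcripts was not tested.

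**Figure D1:**
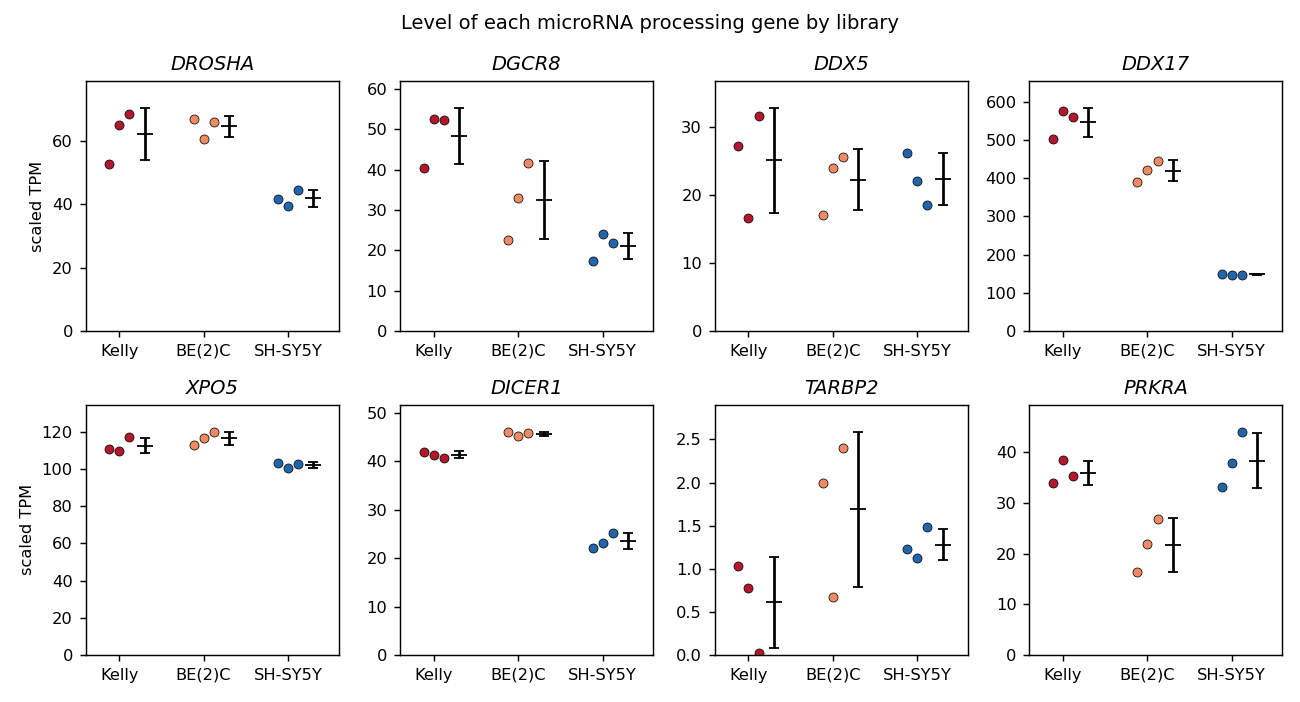
Scaled TPM of each microRNA processing gene (vertical axes, linear and starting at 0) in Kelly, BE(2)C and SH-SY5Y; points are libraries, and the black line beside them marks the mean and SD over 3 libraries. DDX17 separates all 3 lines, at 545.2 ± 38.3 in Kelly and 419.6 ± 27.8 in BE(2)C, against 148.7 ± 1.54 in SH-SY5Y, while the DDX5 points overlap.

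Because MYCN binds DNA at the letters CACGTG and variants of them, both CACGTG and CACGCG were looked for in the 250 bases before the RefSeq starts of the 8 genes, on both strands. The motifs do not overlap each other in these windows. CACGTG was present at 1 of 18 listed starts, a start of DDX5, and in 6.34% of 35116 promoters. CACGCG was present at 5 of 18 (a start each of PRKRA, XPO5, TARBP2, DDX5 and DGCR8) and in 9.72%. The helicase pair is printed because its members differ here. Capitals mark the matches, 186 and 30 bases before the printed start of DDX5. This is 1 of 3 listed DDX5 starts, and the windows of the others hold neither run of letters. DDX17 has 1 listed start, and its window holds neither. A match is a run of letters and not a measured binding site.
DDX5 (chr17:64506639-64506888, minus strand): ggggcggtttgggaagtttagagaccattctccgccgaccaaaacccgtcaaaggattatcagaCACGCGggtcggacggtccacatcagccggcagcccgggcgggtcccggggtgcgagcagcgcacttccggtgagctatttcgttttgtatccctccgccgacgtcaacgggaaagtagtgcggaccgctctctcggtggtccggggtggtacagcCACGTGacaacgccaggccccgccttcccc
DDX17 (chr22:38506312-38506561, minus strand): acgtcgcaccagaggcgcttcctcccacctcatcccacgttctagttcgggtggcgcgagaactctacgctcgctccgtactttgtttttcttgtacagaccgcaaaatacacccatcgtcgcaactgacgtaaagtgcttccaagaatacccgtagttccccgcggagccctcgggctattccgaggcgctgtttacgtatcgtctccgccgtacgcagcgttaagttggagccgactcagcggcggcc

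The export receptor varied least. XPO5 (chr6:43522330-43576075, minus strand) stood at 110.8, 110.0 and 117.3 scaled TPM in Kelly and 113.1, 116.8 and 120.2 in BE(2)C, against 103.5, 100.7 and 102.6 in SH-SY5Y. Both amplified lines lay above SH-SY5Y in every library, by small margins. The log2 difference of 0.19 passed the test in BE(2)C (adjusted p = 0.0181) and that of 0.14 ± 0.06 did not in Kelly (adjusted p = 0.0662). XPO5 was called lower than in SH-SY5Y with values as deposited, at -0.54 in Kelly and -0.36 in BE(2)C, and with spike-in scaling, at -0.75 and -0.41; library totals gave -0.27 in BE(2)C, also called. For the main BE(2)C difference, leaving out replicate 2 of SH-SY5Y gave an adjusted p of 0.0590.

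RAN and the other exportins were examined beside XPO5 as a list of 14 genes. In Kelly 11 were higher and 0 lower than in SH-SY5Y (median log2 0.52, against -0.0047 over all genes), and in BE(2)C 10 were higher and 0 lower (median 0.47, against -0.04). With values as deposited or scaled by spike-ins the Kelly list had 2 or 1 higher and 5 or 7 lower, so its direction turned; in BE(2)C 5, 4 and 4 were higher and 3 lower with library totals, deposited values and spike-ins. RAN averaged 1038 ± 71.8 scaled TPM in Kelly and 1100 ± 155 in BE(2)C, against 446.7 ± 11.2 in SH-SY5Y (log2 1.21 and 1.29; SD, n = 3). RANGAP1, which makes RAN hydrolyse its GTP, was higher by 1.30 and 1.08 in the amplified lines. RCC1, which reloads RAN, was higher by 0.94 in Kelly, and the importin-family receptor XPO4 by 1.20 in BE(2)C. RCC1 also lay above SH-SY5Y in every BE(2)C library (mean 79.3 against 59.0), and XPO4 in every Kelly library (31.4 against 20.3). Kelly against BE(2)C split the list, with 3 higher and 4 lower, among them XPO1, the main protein exporter, at +0.78 and XPO4 at -0.59.

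DICER1 was higher in both amplified lines by close to the same amount under the main scaling. DICER1 (chr14:95086228-95158010, minus strand) measured 42.0, 41.4 and 40.6 scaled TPM in Kelly and 46.1, 45.2 and 45.8 in BE(2)C, against 22.2, 23.2 and 25.3 in SH-SY5Y. No line overlapped another. The log2 difference was 0.79 ± 0.08 in Kelly (1.76 times, adjusted p = 3.61e-05) and 0.93 ± 0.08 in BE(2)C (1.94 times, adjusted p = 1.05e-05). Kelly against BE(2)C gave -0.14 (adjusted p = 0.176), not called although the ranges did not touch. With values as deposited the differences from SH-SY5Y were 0.08 in Kelly (adjusted p = 0.541) and 0.32 in BE(2)C (adjusted p = 0.0304). With spike-in scaling they were -0.08 in Kelly (adjusted p = 0.612) and 0.35 in BE(2)C (adjusted p = 0.0554). Kelly was then called lower than BE(2)C, at -0.43 (adjusted p = 0.0295).

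Neither RNA-binding partner of DICER1 was called higher in an amplified line than in SH-SY5Y. PRKRA, also known as PACT (chr2:178431414-178451512, minus strand), stood at 34.0, 38.5 and 35.4 scaled TPM in Kelly and 16.3, 21.9 and 26.9 in BE(2)C, against 33.2, 37.8 and 44.1 in SH-SY5Y. BE(2)C lay below both other lines in every library. PRKRA was lower in BE(2)C than in SH-SY5Y by a log2 change of -0.81 ± 0.18 (adjusted p = 0.00312) and higher in Kelly than in BE(2)C by 0.73 (adjusted p = 0.00669), while Kelly against SH-SY5Y gave -0.08 (adjusted p = 0.708). The lower value in BE(2)C against SH-SY5Y passed the test under each of the 20 alternative settings. PRKRA was also called lower in Kelly than in SH-SY5Y with values as deposited, at -0.67 (adjusted p = 0.0027), and with spike-in scaling, at -0.96 (adjusted p = 0.0012). With spike-in scaling Kelly against BE(2)C gave 0.44 and was not called (adjusted p = 0.088).

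TARBP2 (chr12:53500921-53506431, plus strand) was the scarcest member, at 1.04, 0.775 and 0.0227 scaled TPM in Kelly and 1.99, 0.677 and 2.41 in BE(2)C, against 1.23, 1.13 and 1.48 in SH-SY5Y. These values surround the filter of 1 scaled TPM and no comparison was called (adjusted p = 0.174, 0.657 and 0.0837). With spike-in scaling it was called lower in Kelly than in SH-SY5Y and BE(2)C, and with values as deposited in Kelly than in SH-SY5Y. EIF2AK2, the kinase PKR, which PRKRA activates and TARBP2 inhibits, averaged 53.7 ± 16.6 in Kelly and 40.4 ± 9.26 in BE(2)C, against 51.4 ± 8.67 in SH-SY5Y, and was not called in any comparison (adjusted p = 0.923, 0.230 and 0.206).

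Counted together, 4 of 8 members were higher and 0 lower in Kelly than in SH-SY5Y (DROSHA, DGCR8, DDX17 and DICER1), where 55.3% of all tested genes were called, 28.1% higher and 27.2% lower. In BE(2)C 5 were higher (the same 4 genes and XPO5) and 1 lower (PRKRA), where 59.4% of genes were called, 28.6% higher and 30.7% lower. Kelly exceeded BE(2)C in 3 (DGCR8, DDX17 and PRKRA) and was lower in 0, where 52.5% were called, 27.9% higher and 24.6% lower. The median log2 fold change of the 8 was 0.35, 0.38 and 0.05 in the 3 comparisons, beside -0.0047, -0.04 and 0.02 over all genes tested. In either direction, 4, 6 and 3 of 8 members were called in the 3 comparisons, a share below, above and below that of all genes. With 8 members these shares were not compared by a test. The tally by direction turned with scaling: against SH-SY5Y it was 1 higher and 4 lower in Kelly and 2 and 3 in BE(2)C with values as deposited, and 1 and 4, and 1 and 3, with spike-in scaling. Library totals gave 4 higher and 0 lower in Kelly and 2 and 2 in BE(2)C. Kelly against BE(2)C gave 1 higher and 0 lower as deposited and 0 and 3 with spike-ins.

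**Figure D2:**
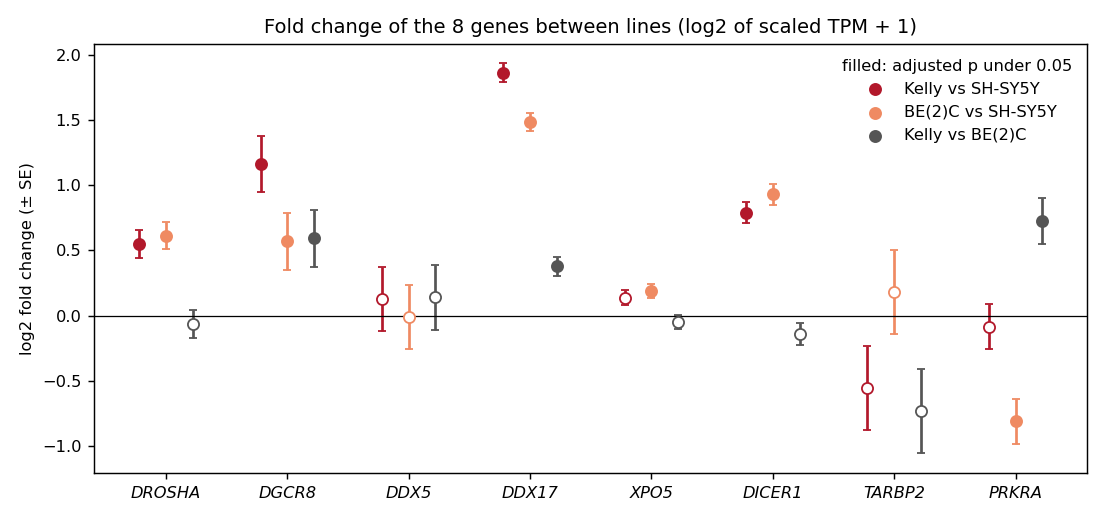
Log2 fold change (vertical axis; points with ± SE) of each gene (horizontal axis) in Kelly against SH-SY5Y, BE(2)C against SH-SY5Y and Kelly against BE(2)C; filled points passed the limma test. DDX17 lies highest in both comparisons with SH-SY5Y, at 1.87 and 1.49, and PRKRA in BE(2)C against SH-SY5Y is the filled point below 0, at -0.81.

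The scaling of the libraries bears on these directions, because it moves the median of all genes. In Kelly against SH-SY5Y that median shifted by -0.43 with the values as deposited and by -0.82 with spike-in scaling, and in BE(2)C against SH-SY5Y by -0.31 and -0.53. DROSHA then measured -0.13 and -0.33 in Kelly, and DICER1 0.08 and -0.08. Less the median, DROSHA in Kelly stayed between 0.30 and 0.66 over all 20 alternatives, DICER1 between 0.51 and 0.84, and DDX17 between 1.56 and 1.92. The lower end of each of these ranges came from values as deposited. Gene entries held 9.34% to 16.25% of the total there, so the 1 added before the log2 weighed more. This also shrinks fold changes, most for low genes. DDX17 passed the test against SH-SY5Y under every alternative, with a log2 difference of at least 0.97 in Kelly and 0.89 in BE(2)C. XPO5 in BE(2)C ran from -0.06 to 0.24 relative to the median. Over the 11 alternatives that kept every library, the call against SH-SY5Y was present in 9 for DROSHA, DGCR8 and DICER1 in Kelly, and in 8, 4 and 10 for the same genes in BE(2)C. In Kelly against BE(2)C it was present in 9 for DDX17, 10 for PRKRA and 6 for DGCR8.

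**Figure D3:**
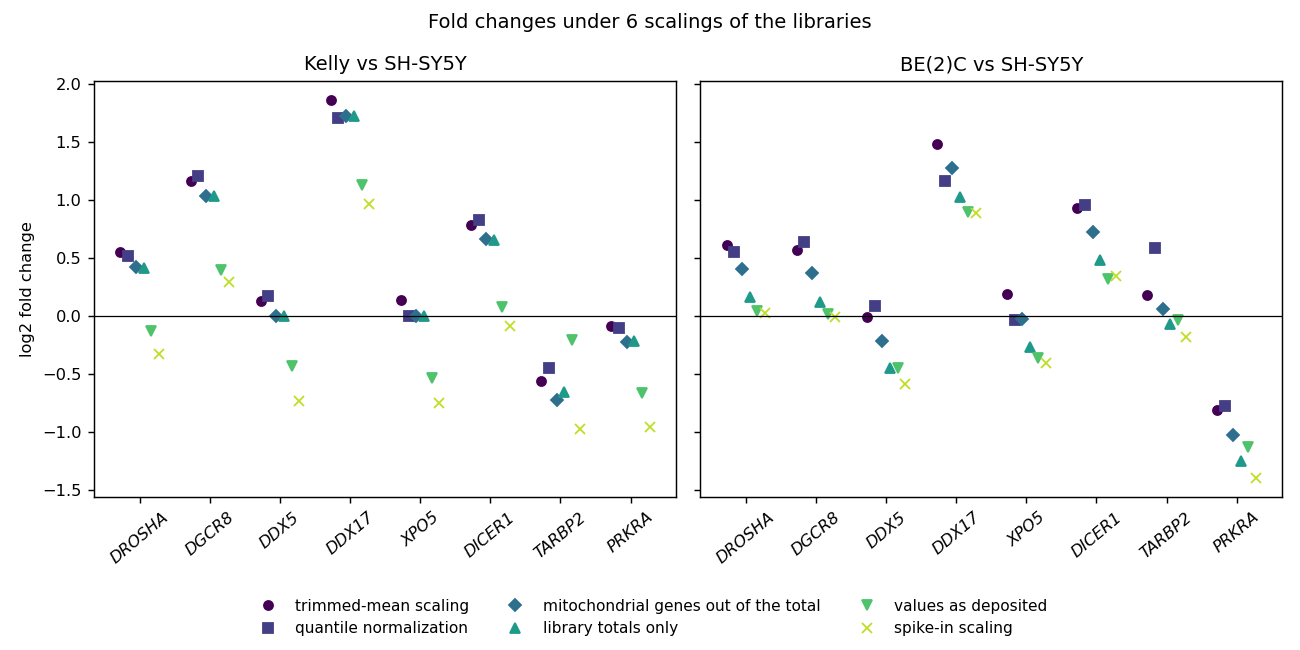
Log2 fold change of each gene in Kelly (left) and BE(2)C (right) against SH-SY5Y under 6 scalings of the libraries, 1 symbol each. The DDX17 symbols stay above 0.8 in both panels, while the DROSHA, DICER1 and XPO5 symbols of Kelly fall on both sides of 0.

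Levels per length placed DDX17, XPO5 and DROSHA in that order at the top of every line. In Kelly, DGCR8 and DICER1 followed with overlapping ranges, then PRKRA, DDX5 and TARBP2. In BE(2)C the next was DICER1, and DGCR8, DDX5 and PRKRA overlapped behind it. In SH-SY5Y, PRKRA overlapped DROSHA, and DICER1, DDX5 and DGCR8 overlapped below them. The 8 genes summed to 871.5 ± 53.3 scaled TPM in Kelly and 724.7 ± 49.9 in BE(2)C, against 399.5 ± 5.77 in SH-SY5Y, of which DDX17 made 62.5%, 57.9% and 37.2%. Without DDX17 the sums were 326.3, 305.1 and 250.8. This order and these sums rest on gene values whose derivation from transcripts is not described. The low levels of DDX5 and TARBP2 were not checked in the reads.

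Ratios of members within a library do not depend on its scaling. DDX17 exceeded DDX5 by 18.4, 34.5 and 17.7 times in Kelly and 22.7, 17.6 and 17.4 times in BE(2)C, against 5.73, 6.67 and 7.92 times in SH-SY5Y. The amplified lines lay wholly above SH-SY5Y, by 1.74 and 1.51 on the log2 scale. The step from transcripts to gene values is not described, and its part in the size of this ratio was not tested. The ratio of DGCR8 to DROSHA was 0.767, 0.806 and 0.763 in Kelly and 0.339, 0.544 and 0.633 in BE(2)C, against 0.421, 0.609 and 0.489 in SH-SY5Y. Kelly overlapped neither other line and lay above BE(2)C by 0.67 and above SH-SY5Y by 0.64 on the log2 scale, and BE(2)C against SH-SY5Y gave -0.04 with overlap.

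XPO5 exceeded DICER1 by 2.64, 2.66 and 2.89 times in Kelly and 2.45, 2.58 and 2.63 times in BE(2)C, against 4.67, 4.34 and 4.06 times in SH-SY5Y. The difference in log2 ratio was -0.68 in Kelly and -0.77 in BE(2)C, without overlap. DICER1 over DROSHA was higher by 0.25 in Kelly and 0.33 in BE(2)C than in SH-SY5Y, again without overlap. TARBP2 over PRKRA could not be read, since replicate 3 of Kelly had almost no TARBP2. Each non-overlapping contrast had p = 0.1 in a two-sided exact permutation test, the smallest that 3 against 3 libraries allow, and 0.15 after Benjamini-Hochberg adjustment over the 15 ratio tests.

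**Figure D4:**
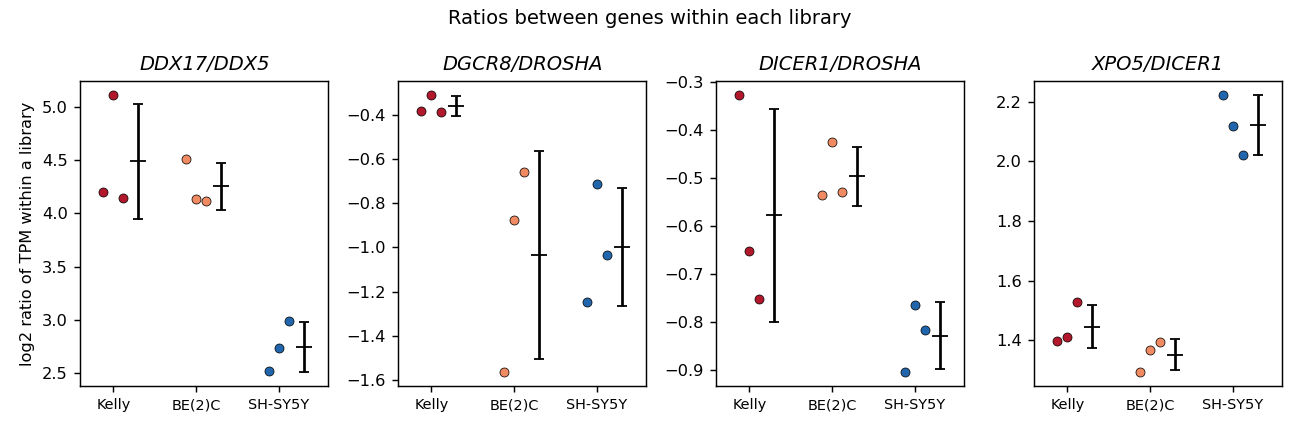
Log2 ratio of 2 members in the same library (vertical axes) for 4 pairs in Kelly, BE(2)C and SH-SY5Y; points are libraries, and the black line beside them marks the mean and SD of 3. DDX17/DDX5 averages 4.49 in Kelly and 4.25 in BE(2)C, against 2.75 in SH-SY5Y, and XPO5/DICER1 averages 1.45, 1.35 and 2.12.

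As a background for the lists of genes, 28.1% of all tested genes were higher and 27.2% lower in Kelly than in SH-SY5Y. In BE(2)C these shares were 28.6% and 30.7%. Among 28 cofactors of the microprocessor, 27 were tested. In Kelly 11 were higher and 5 lower than in SH-SY5Y (median log2 0.18), and in BE(2)C 11 were higher and 1 lower (median 0.25); with deposited values these counts were 0 and 17 in Kelly and 1 and 12 in BE(2)C, so the direction turned. KHSRP, which binds the loops of let-7 precursors, averaged 981.7 ± 17.2 scaled TPM in Kelly and 534.3 ± 13.3 in SH-SY5Y (log2 0.88). NCBP1, the large cap-binding subunit, had 33.6 ± 1.53 in Kelly, against 112.5 ± 7.52 in BE(2)C and 66.3 ± 3.79 in SH-SY5Y (log2 -1.71 and -0.96). In BE(2)C the helicase DDX1 reached 435.2 ± 25.4, against 222.2 ± 11.6 in SH-SY5Y (log2 0.97), SAFB2, a scaffold protein, differed by 0.75, and SMAD3, a TGF-beta effector, by -1.54. HDAC1, a histone deacetylase, was higher in Kelly than in SH-SY5Y by 0.84. In every Kelly library DDX1 and SAFB2 also lay above SH-SY5Y (means 372.3 against 222.2 and 109.3 against 72.2). SMAD3 lay below it there (17.8 against 23.7). KHSRP lay above SH-SY5Y in every BE(2)C library too (739.9 against 534.3), while HDAC1 in BE(2)C overlapped SH-SY5Y.

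Other DEAD-box helicases were split in Kelly against SH-SY5Y, with 9 higher and 6 lower of 23 tested (median log2 0.37). In BE(2)C most calls were upward, with 11 higher and 2 lower (median 0.36). Over all genes tested the medians were -0.0047 and -0.04. With deposited values the counts were 0 and 10 in Kelly and 2 and 9 in BE(2)C, so the direction turned. DDX18, a ribosome assembly factor, and DDX6, which acts in mRNA decay and silencing, were lower in Kelly than in SH-SY5Y by -1.04 and -0.94. DDX54 was higher there by 0.89, and DDX51, DDX10 and DDX39A were higher in BE(2)C by 1.30, 1.14 and 0.94. Some of these differed from SH-SY5Y in every library of the other amplified line too. In BE(2)C these were DDX54 (mean 91.4 against 54.9) and DDX18 (85.1 against 140.4). In Kelly they were DDX51 (31.2 against 19.6) and DDX10 (64.5 against 35.0). DDX6 in BE(2)C and DDX39A in Kelly overlapped SH-SY5Y. DDX21 was lower in Kelly than in BE(2)C, by -0.86.

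Of 13 tested genes that sense or bind double-stranded RNA, 4 were higher and 3 lower in Kelly and 6 higher and 1 lower in BE(2)C, against SH-SY5Y. OAS3, an interferon-induced synthetase, had 61.5 ± 14.0 scaled TPM in BE(2)C, against 14.8 ± 6.29 in SH-SY5Y (log2 2.05), and PRKRIP1 differed by -1.40 in Kelly. Of 14 tested genes that load Dicer products or handle precursors, 4 were higher and 5 lower in Kelly, and 3 and 3 in BE(2)C. ZCCHC6 (TUT7), which adds uridines to let-7 precursors, was at 5.08 ± 1.21 in Kelly and 13.2 ± 0.702 in SH-SY5Y (log2 -1.25), and DIS3L2, which degrades uridylated precursors, differed by -0.69. The chaperones moved unequally: HSP90AA1 differed by -0.80 in Kelly and HSP90AB1 by 0.60 in BE(2)C. With deposited values these lists had 1 and 11, 3 and 6, 0 and 11, and 1 and 11 genes higher and lower, in the same order.

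DDX17 and DGCR8 both lie on chromosome 22, and under the main scaling more genes around them were higher than lower in both amplified lines. Of 43 tested genes starting within 1 Mb of DDX17, 32 were higher and 3 lower in Kelly than in SH-SY5Y (median log2 1.11), and 24 and 6 in BE(2)C (median 0.55). Around DGCR8, 16 of 29 were higher and 3 lower in Kelly (median 0.52), and 9 and 4 in BE(2)C (median 0.30). With values as deposited, 19 were higher and 6 lower in Kelly and 15 and 11 in BE(2)C around DDX17. Around DGCR8 the direction of the counts then turned, with 5 and 6 in Kelly and 4 and 11 in BE(2)C. The rest of chromosome 22, over 3 Mb from both genes, was then counted, a choice made after these values were seen: of 163 genes, 60.7% were higher in Kelly (median 0.63) and 36.2% in BE(2)C (median 0.19), beside 27.4% and 28.5% of 12235 genes on all other chromosomes. In Kelly against BE(2)C, 50.9% of those 163 genes were higher (median 0.46), beside 27.6% elsewhere.

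Against SH-SY5Y, DDX17 itself had a larger log2 fold change than 33 of its 43 neighbours in Kelly and 32 in BE(2)C. DGCR8 had a larger one than 23 and 21 of 29. In Kelly against BE(2)C, DDX17, at 0.38, exceeded 18 of its neighbours and lay below 25 (median 0.49). DGCR8, at 0.59, there exceeded 19 of 29 (median 0.38). Relative to all genes, the median of the DDX17 neighbours over 6 scalings was 0.69 to 1.18 in Kelly and 0.35 to 0.60 in BE(2)C, each against SH-SY5Y. That of the DGCR8 neighbours was 0.34 to 0.52 and 0.16 to 0.35, positive under each scaling although their counts turned. DNA copy number was not measured in these files, and its part in these values was not tested. Around XPO5, 14 of 42 neighbours were higher and 11 lower in Kelly (median -0.09) and 11 and 10 in BE(2)C (median -0.03). Around TARBP2, 9 of 34 were higher and 5 lower in Kelly (median 0.08), but 20 and 6 in BE(2)C (median 0.54), a median close to that around DDX17 in the same line although TARBP2 itself was not called. DROSHA had 6 tested neighbours, 2 higher and 0 lower in Kelly (median 0.07) and 4 and 0 in BE(2)C (median 0.65). Around DDX5, 4 of 21 were higher and 7 lower in Kelly and 3 and 10 in BE(2)C. DICER1 had 4 tested neighbours, 3 higher and 1 lower in Kelly and 2 and 1 in BE(2)C, and PRKRA had 8, with 2 higher and 3 lower in each line. Under the main scaling, higher calls outnumbered lower ones around DROSHA, DICER1, TARBP2 and XPO5, and lower calls outnumbered higher ones around DDX5 and PRKRA. The DROSHA and DICER1 counts rest on 6 and 4 genes. Over all tested genes, 28.1% were higher and 27.2% lower in Kelly, and 28.6% and 30.7% in BE(2)C. The TARBP2 neighbours called higher in BE(2)C include the adjoining genes HOXC4, HOXC5, HOXC6, HOXC8, HOXC9, HOXC10 and HOXC11.

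**Figure D5:**
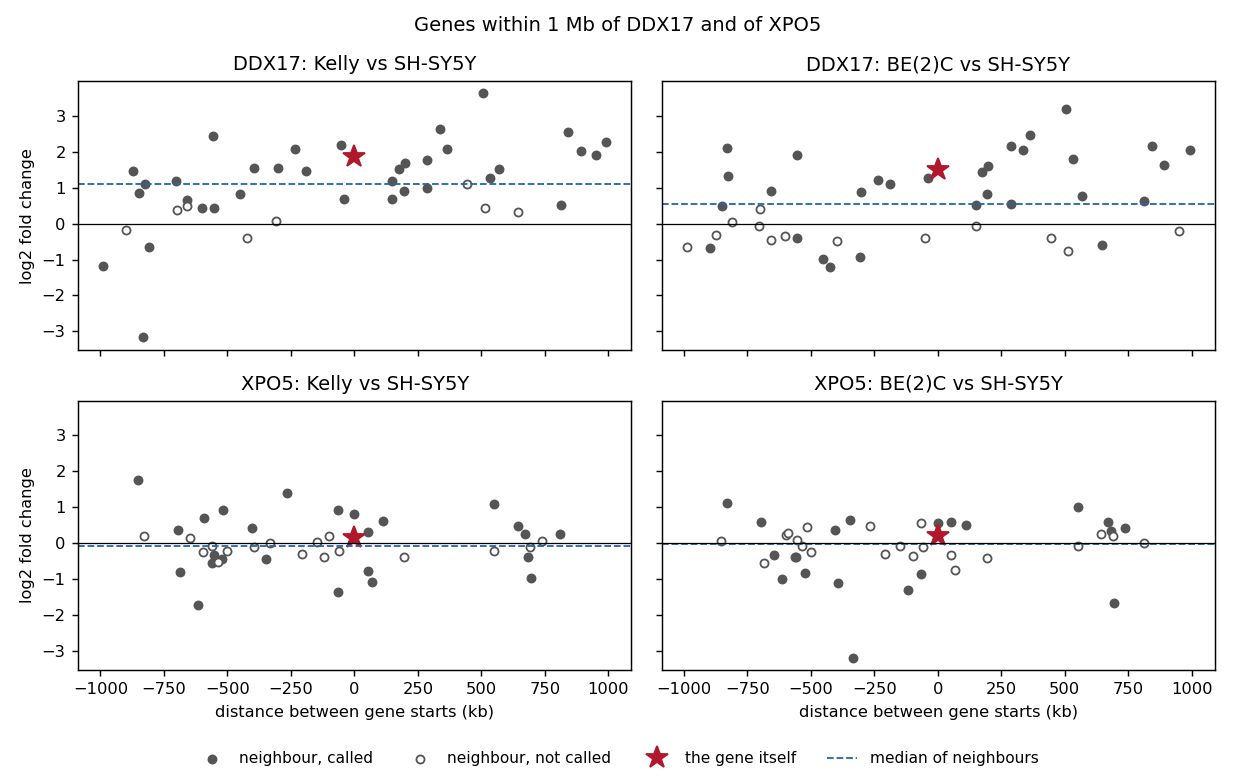
Log2 fold change against SH-SY5Y (vertical axis) of each tested gene within 1 Mb of DDX17 (top) and XPO5 (bottom), in Kelly (left) and BE(2)C (right), by distance between gene starts in kb; filled points were called, open points were not, the star is DDX17 or XPO5 itself and the dashed line is the median of the neighbours. Most points around DDX17 in Kelly lie above 0 (32 of 43 called higher), while those around XPO5 fall on both sides.

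The gene most like each member was the one with the smallest root mean square distance between log2 levels over the 9 libraries, each centred on its own mean, among 8723 candidates. DROSHA was nearest to MCCC2 (0.07), DGCR8 to LDOC1 (0.17), DDX5 to DHX35 (0.14) and DDX17 to ZNF217 (0.11). XPO5 was nearest to NACC1 (0.05), DICER1 to DDX1 (0.06), TARBP2 to MAB21L3 (0.22) and PRKRA to TSNARE1 (0.11). ZNF217 averaged 65.2 scaled TPM in Kelly and 55.7 in BE(2)C, against 17.0 in SH-SY5Y, the same order of lines as DDX17 at a lower level. Within the 8 genes the closest pair was DROSHA and DICER1, at 0.17. These distances describe 9 libraries of 3 lines and carry no test. DDX5 overlapped across the lines and TARBP2 lay near the filter, so their nearest genes may reflect spread between libraries of a line.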

How the data were processed

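The deposited table holds log10(TPM + 1) values, a reading taken from the values themselves: back-transformed, they sum to 966592 to 980009 per library, spike-ins included. HISAT 0.1.6, Salmon 0.3.2 and GRCh38 appear, without their roles, in the submitters' processing notes; the step from transcripts to genes is not described there. TPM keeps no depth, so the depth per library is unknown. The protocol names a DNA library kit with polyA selection, and the use of strand is not stated.

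Gene entries were rescaled to 1000000, divided by unweighted trimmed-mean factors (trims of 30% on log ratios and 5% on log levels; factors 0.758 to 1.17) and tested with limma 3.58.1 (R 4.3.3, trend) on log2(scaled TPM + 1). Fold changes on that scale understate those of low genes. Genes at 1 scaled TPM or more in at least 3 libraries were tested, all 9 libraries in 1 fit, with Benjamini-Hochberg adjustment over 13076 genes. Unused columns of values number 0. Ratios used exact permutation tests.

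The members and lists were chosen with earlier results of these data known. Named beyond the members are EIF2AK2, RAN, up to 3 called genes per list and comparison with the largest change and at least 10 scaled TPM in the higher line, and each member's nearest gene. Not every gene this rule admits is printed. A gene named for a line may also differ from SH-SY5Y in the other amplified line. Same-numbered libraries had correlations of deviations of -0.05 to 0.03, so the numbers do not pair them.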

Additional observations from a re-analysis of the deposited data

How the results depend on the processing

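Members called were 4 in Kelly and 6 in BE(2)C against SH-SY5Y and 3 in Kelly against BE(2)C; with values as deposited the last count was 1. These totals hide direction: against SH-SY5Y, 4 higher and 0 lower in Kelly and 5 and 1 in BE(2)C became 1 and 4, and 2 and 3, as deposited, and 1 and 4, and 1 and 3, with spike-ins. Kelly against BE(2)C, 3 higher and 0 lower, became 0 and 3 with spike-ins. Leaving out 1 library gave 4 to 4, 4 to 6 and 2 to 3 calls. Signs turned mainly with scaling. With library totals alone XPO5 gave -0.27 in BE(2)C against SH-SY5Y and 0.27 in Kelly against BE(2)C. With values as deposited, Kelly against SH-SY5Y gave -0.13 for DROSHA, -0.43 for DDX5 and -0.54 for XPO5, and BE(2)C gave -0.36 for XPO5. With spike-in scaling the Kelly values were -0.33 for DROSHA, -0.73 for DDX5, -0.75 for XPO5 and -0.084 for DICER1, and the BE(2)C values -0.0098 for DGCR8 and -0.41 for XPO5. With mitochondrial genes out of the total XPO5 in BE(2)C gave -0.0221, and with quantile normalization -0.0312. Of all calls, 50.8% and 48.2% were higher in Kelly and BE(2)C against SH-SY5Y; this share was 41.6% and 23.8% with library totals, 15.1% and 18.9% as deposited, 11.8% and 18.0% with spike-ins, and 42.0% and 36.5% without mitochondrial genes. In Kelly against BE(2)C it was 53.2%, with 74.3% for library totals, 43.2% as deposited and 33.6% for spike-ins. The median of all genes shifted by -0.12 and -0.40 with library totals and by -0.13 and -0.19 without mitochondrial genes. A stricter filter of 5 scaled TPM left TARBP2 untested. The library numbers do not pair the lines, and with the replicate block 4, 6 and 3 members were called in the 3 comparisons, and no member's call changed. The 2 calls of DGCR8 near the threshold were lost in 7 and 5 of 11 settings that kept every library; beyond the construction of each setting the cause was not tested. Unknown depth leaves low members such as TARBP2 without a counting error.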
